A study of Mus musculus with 3 samples.

Results

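Enteric neurons with little RNA for Nos1, Vip and Gal were described in single-cell libraries of mouse small intestine. Nos1 encodes the neuronal nitric oxide synthase, and Vip and Gal encode the peptides vasoactive intestinal peptide and galanin. The cells were selected on these 3 genes and on markers of neurons: a cell was a member if it held at least 5 molecules of Stmn2 and at least 2 of Elavl4, both neuronal genes, at most 2 of Epcam, an epithelial gene, and fewer than 3 of Nos1, Vip and Gal together. Molecules were counted by unique molecular identifier (UMI). Of 28436 cells, 818 were members: 324 of 8447 at E15.5, 428 of 11598 at E17.5 and 66 of 8391 at P7.

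All cells came from untreated wild-type mice, and each stage was 1 library, so no comparison below has a replicate. The stages were 2 days of embryonic development, E15.5 and E17.5, and postnatal day 7 (P7), and the tissue was the whole small intestine. Epithelium and gut wall were dissociated separately, pooled again, and sorted for live cells that either carried Epcam or lacked Epcam, the endothelial protein CD31 and the blood cell protein CD45, before capture with the Chromium 3′ v2 chemistry. The sources used here do not give the strain, the sex or how many animals went into a library.

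Enteric neurons arise from neural crest cells that colonise the gut, and they form circuits that move its contents and regulate secretion. As background, excitatory motor neurons and many interneurons release acetylcholine, often together with tachykinins or enkephalins, while inhibitory motor neurons release nitric oxide and vasoactive intestinal peptide. Intrinsic sensory neurons are a further class, many of which carry calcitonin gene-related peptide.

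The members held 3904808 UMIs at E15.5, 4505737 at E17.5 and 784815 at P7, with medians of 10163.5, 9114.5 and 11480.5 per cell. Mitochondrial genes held 3.76%, 4.53% and 5.99% of these UMIs. Haemoglobin genes held 0.232%, 1.37% and 0.00115%. Levels are given in CPM, the UMIs of a gene in every 1000000 UMIs of the members of a library, in the order E15.5, E17.5 and P7. They are comparable for 1 gene between groups, not between genes. Brackets hold 95% intervals, exact Poisson for levels, exact binomial for log2 ratios and shares, and they hold only counting error, since animals and tissue preparations could not be compared within a stage.

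The members carried neuronal genes that the selection had not used. Tubb3, the neuronal β-tubulin, stood at 1514, 1087 and 883 CPM and had a UMI in 322 of 324, 416 of 428 and 64 of 66 cells. Uchl1, a ubiquitin hydrolase of neurons, stood at 1937, 2195 and 2322 CPM. In cells with no UMI of Stmn2 or Elavl4 and at most 2 of Epcam, the non-neuronal cells of the same library, Tubb3 was at most 3.45 CPM and Uchl1 at most 16.0 CPM. The label of enteric neurons therefore had its markers in all 3 libraries.

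RNA of other cell types was present in the members to different degrees by stage. Leaving out the 7, 27 and 0 members in which muscle, fibroblast and immune genes held over 1% of UMIs, a limit chosen after values were seen, moved none of the counts over all genes given below by more than 1.5 times, and the part of the other kinds of RNA was not tested. The 8 smooth muscle genes summed to 880, 1400 and 38.2 CPM, which was 9.17%, 8.26% and 0.263% of their sum in non-neuronal cells. The 8 fibroblast genes summed to 442, 1052 and 35.7 CPM. At E15.5 and E17.5, 94.6% and 92.8% of the muscle UMIs lay in the 10% of members that held most of them. Epithelial genes went the other way, with a sum of 55.1, 97.4 and 1027 CPM, or 0.676%, 0.574% and 2.71% of their sum in epithelial cells. At P7 Apoa4, a lipoprotein gene of enterocytes, had a UMI in 60 of 66 members. The 6 immune genes summed to 117, 159 and 1.27 CPM, with 5 of 6 at 0 UMIs at P7. Of the 12 glial and progenitor genes, Gfap, Cdh19 and Col28a1 never exceeded 1.27 CPM, and Sox10 stood at 4.10, 5.77 and 6.37 CPM. Scrublet, a caller of droplets with more than 1 cell, marked 25, 45 and 0 of the members.

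The neurons as a whole numbered 514, 656 and 162 cells by the same limits on Stmn2, Elavl4 and Epcam. Members made up 63.0% of them at E15.5 [58.7 to 67.2], 65.2% at E17.5 [61.5 to 68.9] and 40.7% at P7 [33.1 to 48.7]. The remaining 190, 228 and 96 neurons, with 3 or more UMIs of Nos1, Vip and Gal, are called the high neurons here. High neurons were deeper, with medians of 14510.5, 11251.5 and 14071 UMIs, and the share of members was not adjusted for depth. As the selection sets it, Nos1 stood at 1.28, 2.66 and 2.55 CPM in members and 220, 466 and 1387 CPM in high neurons, and Vip at 11, 13.1 and 8.92 CPM against 2313, 2426 and 5332 CPM. Within the members, 247, 333 and 55 cells had no UMI of the 3 genes, 60, 80 and 9 had 1, and 17, 15 and 2 had 2.

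Cells close to the limit were few. Just outside it, with exactly 3 UMIs of Nos1, Vip and Gal, lay 11, 9 and 1 neurons, against 160, 194 and 92 with 10 or more. Slc18a3, the vesicular acetylcholine transporter, stood at 208, 169 and 209 CPM in cells with 2 UMIs and at 214, 198 and 252 CPM in cells with 3. In cells with 10 or more it stood at 71.3, 38.0 and 74.0 CPM. Cartpt, a peptide gene, stood at 619, 36.9 and 34.8 CPM just inside, at 294, 89.1 and 693 CPM just outside, and at 3172, 3073 and 2163 CPM in cells with 10 or more. At the other limits, 8, 5 and 0 members held exactly 5 UMIs of Stmn2, with 9, 7 and 1 cells at 4. Exactly 2 UMIs of Elavl4 were held by 7, 18 and 0 members, and 5, 5 and 0 further cells held 1.

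Genes were compared in 5 ways: E17.5 with E15.5, P7 with E17.5, and members with high neurons in each library. A gene entered with a mean of at least 10 CPM over both groups and at least 20 UMIs, and it counts as higher or lower when the ratio was at least 1.5-fold and its interval excluded no change. From E15.5 to E17.5, 965 of 8669 genes did so (11.1%), 462 higher (5.33%) and 503 lower (5.8%), and the median log2 ratio was -0.10. From E17.5 to P7, 2788 of 8973 genes did so (31.1%), 2071 higher (23.1%) and 717 lower (7.99%), with a median of 0.22. Setting that median to no change gave 1367 higher and 1218 lower for the second step, and 601 higher and 292 lower for the first, so the split between directions depends on the scaling. Both steps use the E17.5 library. The split into members and high neurons was made on 3 genes of the same cells, so values across it are a description.

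Most genes of the machinery for acetylcholine were higher at P7, and none passed the limit between E15.5 and E17.5. In the first step the median log2 ratio of the 7 cholinergic genes was -0.08, against -0.10 for all genes, although the counting intervals of Ache (0.31 [0.10 to 0.52]), Slc5a7 (0.23 [0.05 to 0.41]) and Prima1 (-0.45 [-0.77 to -0.12]) excluded no change. Of the 7, 6 were higher in the second step, with none lower (median 1.11, against 0.22). With the median of all genes set to no change, 5 were higher and 1 was lower in the second step. The levels of the cholinergic genes and of the main peptide genes in members, high neurons and non-neuronal cells are plotted by stage.

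**Figure D1:**
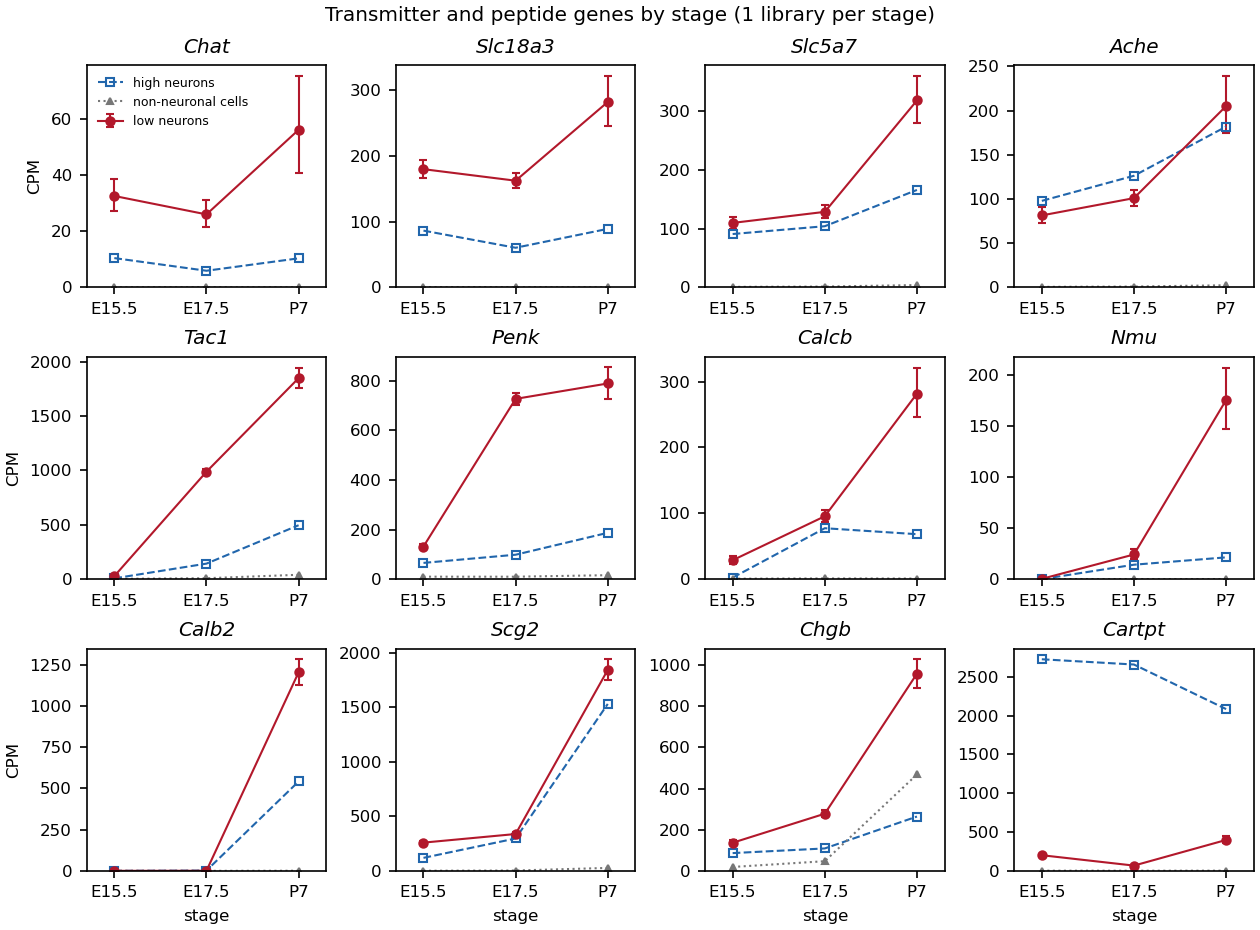
Levels in CPM (vertical axes) of 12 genes at E15.5, E17.5 and P7 (horizontal axes), in neurons low in Nos1, Vip and Gal with exact Poisson 95% intervals, in high neurons, and in non-neuronal cells. In low neurons Slc5a7 reaches 319 at P7 and Tac1 goes from 27.1 to 987 to 1848, while Cartpt is at most 398 in low neurons and at least 2083 in high neurons.

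Chat, which makes acetylcholine, stood at 32.5 CPM [27.1 to 38.7], 26.0 [21.5 to 31.1] and 56.1 [40.7 to 75.3] in the members, and at 10.4, 5.92 and 10.3 CPM in high neurons. The P7 level was the highest of the 3, with a log2 ratio to E17.5 of 1.11 [0.58 to 1.62]. Slc18a3, which loads acetylcholine into vesicles, stood at 180, 162 and 282 CPM, with a log2 ratio of 0.80 [0.57 to 1.02] in the second step. Its level in high neurons was 86.2, 60.2 and 88.9 CPM, below the members in every library. Slc5a7, which takes choline back up, stood at 110, 129 and 319 CPM, with a log2 ratio of 1.31 [1.09 to 1.52]. In the reference annotation (GENCODE M21, GRCm38) the Slc18a3 gene, chromosome 14 from 32462438 to 32464850, lies inside the Chat gene, chromosome 14 from 32408203 to 32465989, on the same minus strand, so reads of this locus may have been split or lost in counting.

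Supporting genes of the same pathway were also higher at P7. Ache, which degrades acetylcholine, stood at 81.4, 101 and 205 CPM. Acly, which supplies acetyl-CoA, stood at 75.8, 74.1 and 195 CPM, and Slc44a1, a choline transporter, at 20.2, 19.1 and 44.6 CPM. The exception was Prima1, the membrane anchor of acetylcholinesterase, at 45.3, 33.3 and 20.4 CPM, which did not pass the limit in the second step (log2 ratio -0.71 [-1.55 to 0.04]).

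Members and high neurons differed in some of these genes and not in others. At E15.5, 830 of 8576 genes (9.68%) passed the limit between them, 5.94% higher in members and 3.74% lower, with a median log2 ratio of 0.06. At E17.5, 938 of 8558 (11%) did so, 6.36% higher and 4.6% lower, with a median of 0.06, and at P7, 1096 of 9078 (12.1%), 6.3% higher and 5.77% lower, with a median of 0.04. High neurons held smooth muscle genes at 452, 1578 and 225 CPM in sum and haemoglobin genes at 1.02%, 1.08% and 0.00179% of UMIs, whose part in these differences was not tested. Of the 7 cholinergic genes, 3, 3 and 4 were higher in members, and Slc44a1 was lower at E17.5 alone. Chat had log2 ratios of 1.64, 2.13 and 2.44 and Slc18a3 of 1.06, 1.43 and 1.66. Slc5a7 passed the limit at P7 (0.94 [0.68 to 1.20]) and not before, with 90.9, 104 and 166 CPM in high neurons, and Ache passed it in no library.

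Per cell, the cholinergic genes were detected in part of the members. After each cell was thinned to 3000 UMIs, which left out 3, 6 and 0 members, a UMI of Chat, Slc18a3 or Slc5a7 was present in 180 of 321 cells at E15.5 (56.1% [50.5 to 61.6]), 237 of 422 at E17.5 (56.2% [51.3 to 61.0]) and 53 of 66 at P7 (80.3% [68.7 to 89.1]). Without thinning the shares were 85.2%, 83.9% and 95.5%. Thinned high neurons had such a UMI in 33.3%, 29.5% and 44.8% of cells, and 1000 thinned non-neuronal cells of each library in 0.300%, 0.300% and 1.20%. The shares of E15.5 and E17.5 lay within each other's intervals, and that of P7 was above both.

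Members with and without a cholinergic UMI at equal depth differed in Sox11, a factor of newly formed neurons, before birth. It stood at 544 CPM in E15.5 members with such a UMI and at 809 CPM in those without, and at 402 and 659 CPM at E17.5. Smooth muscle genes moved the same way, with sums of 154 and 924 CPM at E15.5 and of 508 and 1447 CPM at E17.5, and their part was not tested. The list of immature neuron genes, which includes Sox11, went the other way in sum. It stood at 25052 CPM with a cholinergic UMI and 22043 CPM without at E15.5, and at 23022.5 and 19980 CPM at E17.5. Sox11 thus does not stand for the list. The 13 cells without a cholinergic UMI at P7 were too few to compare.

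Few receptors for acetylcholine could be compared, and those past the limit went in both directions in the first step alone. Over all genes, 5.33% were higher and 5.8% lower in the first step, and 23.1% higher and 7.99% lower in the second. The counts of receptors are too small to set against these shares. Of 9 receptor genes, 5 could be compared in the first step, with 1 higher and 2 lower (Chrna5 and Chrnb2), and 6 in the second, with 2 higher and none lower. Chrna3, the ganglionic nicotinic subunit, stood at 135, 107 and 206 CPM, and Chrm1, a muscarinic receptor, at 7.43, 11.5 and 45.9 CPM. Chrm2, another muscarinic receptor, stood at 20.2, 33.1 and 40.8 CPM in members against 12.3, 14.8 and 19.3 CPM in high neurons. It was above the limit in all 3 libraries, although non-neuronal cells held 53.5, 46.9 and 29.8 CPM.

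Peptide and calcium-binding genes were higher at each later stage in part of the list. Of 24 such genes, 17 could be compared in the first step, with 8 higher and 1 lower (median 0.49), and 20 in the second, with 15 higher and 3 lower (median 1.42). Tac1 (chromosome 6 from 7554879 to 7565834, plus strand), the precursor of substance P and neurokinin A, stood at 27.1, 987 and 1848 CPM and had a UMI in 31, 197 and 40 members. The log2 ratio was 5.18 [4.91 to 5.48] in the first step and 0.90 [0.82 to 0.99] in the second. High neurons held 6.95, 142 and 495 CPM, so members were above them in each library. At 3000 UMIs per cell, 4.67%, 37.9% and 53.0% of members had a Tac1 UMI, against 0.500%, 0.700% and 1.10% of non-neuronal cells. Cells differed widely in it: the members with most Tac1 held 19, 204 and 202 UMIs, and 3, 99 and 27 members held 10 or more.

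Penk, the precursor of enkephalins, was higher at E17.5 and did not pass the limit after that. It stood at 131, 727 and 789 CPM. The log2 ratio was 2.47 [2.33 to 2.60] in the first step and 0.12 [-0.01 to 0.24] in the second. High neurons held 65.4, 98.3 and 187 CPM. At P7 Penk had a UMI in 30 members, of which 8 held 10 or more and 1 held 181. Calcb (chromosome 7 from 114718643 to 114723365, plus strand), which encodes the β form of calcitonin gene-related peptide, stood at 28.7, 95.4 and 282 CPM and was higher in both steps. It was detected in 44, 58 and 16 members, and 1 P7 member held 66 of its UMIs. In high neurons it stood at 2.21, 77.3 and 68.2 CPM. Its close relative Calca stood at 14.1, 35.5 and 10.2 CPM, higher in the first step and lower in the second. Calca and Calcb are close paralogues, and reads of one may have been counted for the other or lost.

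Several further peptides came from few cells. Nmu, neuromedin U, stood at 0.256, 24.2 and 176 CPM, from 1, 15 and 6 members. Sst, somatostatin, had no UMI at E15.5 and stood at 1.33 and 289 CPM after that, and 1 cell held 43.6% of its UMIs at P7. Cck stood at 12.0, 2.66 and 81.5 CPM in members while non-neuronal cells held 4.88, 55.3 and 219 CPM. Grp, gastrin-releasing peptide, stood at 43.5, 68.8 and 80.3 CPM and was higher than in high neurons before birth and lower at P7, where high neurons held 227 CPM. Adcyap1 fell in the second step, from 17.3 to 5.10 CPM.

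Calb2, the calcium-binding protein calretinin, was nearly absent before birth. It had 0 UMIs at E15.5, which allows at most 0.768 CPM (3 UMIs), stood at 0.222 CPM at E17.5 from 1 UMI, and reached 1203 CPM at P7 in 43 of 66 members, 31 of which held 10 or more UMIs. High neurons held 0, 1.64 and 542 CPM. Calb1, calbindin, went the other way in the second step, from 54.6 to 20.4 CPM, in 2 cells at P7. It was above high neurons at P7 (20.4 against 4.82 CPM), and this turned to a log2 ratio of -0.58 when members with any UMI of Nos1, Vip or Gal were left out.

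Genes for packing and cutting peptides were higher at P7. Chgb, a chromogranin of dense-core vesicles, stood at 136, 278 and 958 CPM, while non-neuronal cells held 18.8, 46.8 and 468 CPM. Scg2, a granin of the same vesicles, stood at 259, 338 and 1842 CPM in members, with a log2 ratio of 2.45 [2.34 to 2.55], and at most 26.7 CPM in non-neuronal cells. At P7 it had a UMI in 65 of 66 members, with a median of 12.7 UMIs per 10000 UMIs of a cell, against 243 of 428 members and 0.930 at E17.5. The processing enzymes Pcsk1, Pcsk2, Cpe and Pam were each higher at P7, Pcsk2 at 23.3, 54.6 and 208 CPM and Pcsk1 at 26.4, 20.9 and 91.7 CPM. Cartpt, the cocaine- and amphetamine-regulated transcript, stood at 201, 67.5 and 398 CPM, and 1 cell held 33.0% of its UMIs at P7. High neurons held 2724, 2657 and 2083 CPM of Cartpt, far above the members in all 3 libraries.

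Promoters of this list were searched for the palindromic cAMP response element, TGACGTCA, which reads the same on both strands, because many of these genes were higher at P7 together. RefSeq promoters on GRCm38.p6 were available for 18 of the 24 genes, and 5 of the 18 (27.8%) held the element in the 250 bases before the start site, against 478 of all 27025 gene symbols (1.77%) and 508 of 32851 promoters (1.55%). Of the other lists searched, 1 of 18 synapse and vesicle genes, 1 of 18 transcription factors and none of the 7 cholinergic genes held it. The 30 bases around each match are given in the direction of the gene, with the element in capitals. They lie at chr1:79440076-79440105 (minus strand, Scg2), chr2:132781559-132781588 (plus strand, Chgb), chr13:75089768-75089797 (plus strand, Pcsk1), chr13:99900777-99900806 (minus strand, Cartpt) and chr16:23890874-23890903 (minus strand, Sst).
Scg2: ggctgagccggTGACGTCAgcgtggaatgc
Chgb: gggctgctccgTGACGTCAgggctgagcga
Pcsk1: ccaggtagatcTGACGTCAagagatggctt
Cartpt: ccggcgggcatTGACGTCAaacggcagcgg
Sst: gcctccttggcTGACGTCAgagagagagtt
The element began 68, 72, 78, 112 and 48 bases before the start site in this order. All 5 genes were higher at P7 than at E17.5, and they are among the 15 of 20 genes compared in the list that were. Whether the element has a part in this was not tested, and a match of letters is a description, not a site of binding.

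Tac1 and Calcb were seldom found in the same member. At 3000 UMIs per cell, Calcb had a UMI in 2 of 160 Tac1-positive members at E17.5 (1.25%) and in 14.1% of the others. At P7 it had one in 0 of 35 Tac1-positive members, which allows up to 8.57%, and in 14 of the 31 others (45.2%). At the same stages Penk was more frequent with Tac1, in 73 of 160 positive members (45.6%) against 21% of the others at E17.5 and in 20 of 35 (57.1%) against 3.23% at P7. At E15.5 this was not seen: Penk had a UMI in 2 of 15 Tac1-positive members (13.3%) and in 12.7% of the others, and Calcb in 0 of 15, which allows up to 20%, and in 7.84%. The pairs of genes were chosen after their values had been seen.

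**Figure D2:**
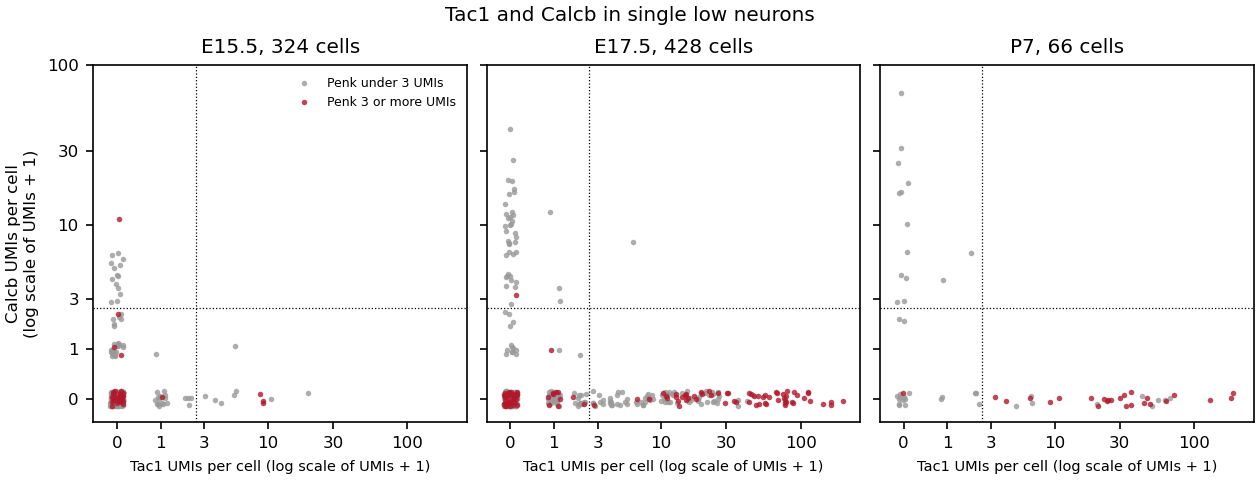
UMIs of Tac1 (horizontal axis) and Calcb (vertical axis), both on a logarithmic axis of UMIs plus 1, in each neuron low in Nos1, Vip and Gal, 1 panel per stage, with points shifted slightly to show overlaps. Red points held 3 or more UMIs of Penk, dotted lines set off cells with 3 or more UMIs, and 1 cell at E17.5 lies beyond both lines.

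To describe both groups, members with 3 or more UMIs of Tac1 or of Calcb were set apart, a choice made after the values were seen. The Tac1 group held 11, 139 and 33 members, the Calcb group 15, 41 and 14, and 1 E17.5 cell fell in both. Members in neither numbered 298, 247 and 19. Median depths at P7 were 11506 UMIs in the Tac1 group, 15010.5 in the Calcb group and 7212 in neither, so a gene can be missed more easily in the last. Between the Tac1 and Calcb groups, 1426 of 8469 genes passed the limit at E17.5 (16.8%), 8.53% higher in the Tac1 group and 8.31% in the Calcb group. At P7, 1079 of 5326 did so (20.3%), 10.5% higher in the Tac1 group and 9.73% in the Calcb group. Of the list genes, 40 and 61 of 185 were higher in the Tac1 and Calcb groups at E17.5, and 47 and 56 of 168 at P7. Of 158 list genes compared in both libraries, 25 were higher in the Tac1 group in both, 36 were higher in the Calcb group in both, and 4 passed in opposite directions. No share over all genes is given for both libraries together. The lists were chosen with earlier results of these data known, so these counts are a description.

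**Figure D3:**
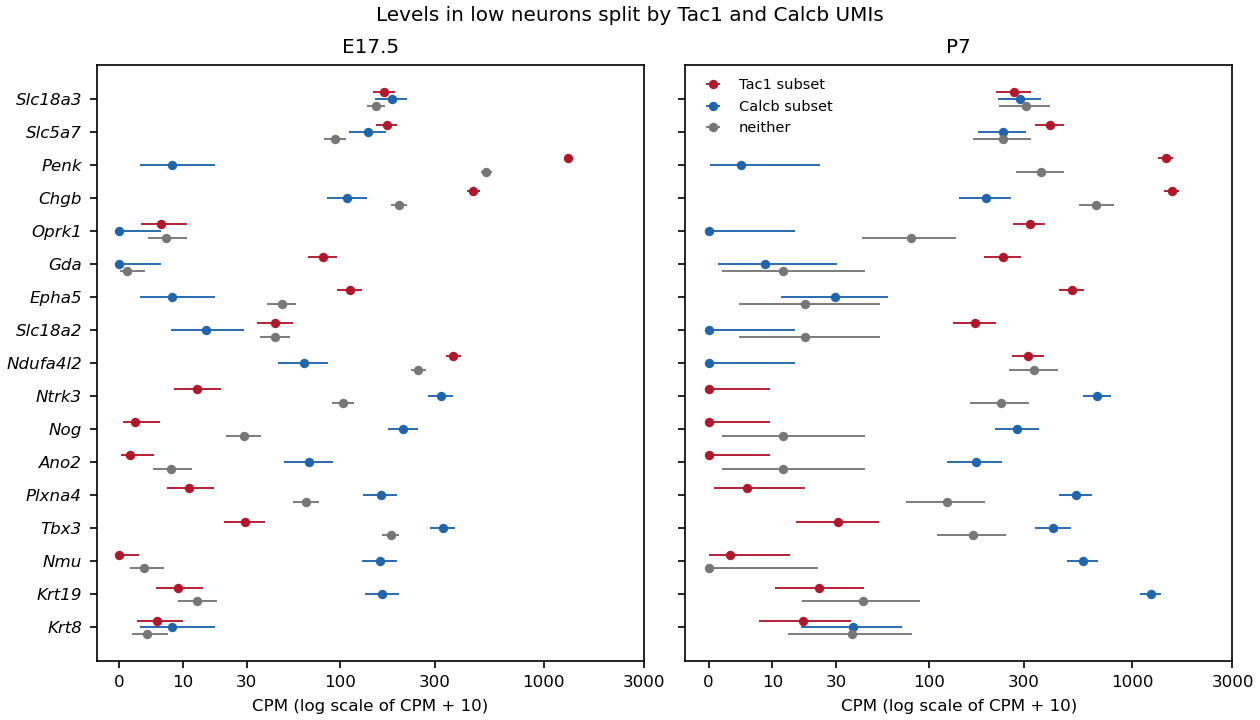
Levels in CPM of 17 genes in members with 3 or more Tac1 UMIs, in members with 3 or more Calcb UMIs and in members with neither, at E17.5 and P7, on a logarithmic axis of the level plus 10, with 95% counting intervals. Penk, Gda and Epha5 are high in the Tac1 group and Ntrk3, Nog, Plxna4 and Krt19 in the Calcb group at both stages, while the intervals of Slc18a3 overlap.

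The Tac1 group carried Penk and a set of further genes. Penk stood at 1305 CPM in the Tac1 group and 7.84 CPM in the Calcb group at E17.5, and at 1445 and 4.22 CPM at P7. Gda, guanine deaminase, stood at 81.7 and 0 CPM at E17.5 and at 237 and 8.44 CPM at P7. Epha5, a guidance receptor, stood at 113 and 7.84 CPM and then at 513 and 29.6 CPM, and Chgb at 460 and 110 CPM and then at 1543 and 194 CPM. At P7 Oprk1, the κ-opioid receptor, had a UMI in 26 of 33 cells of the Tac1 group (320 CPM) and in none of 14 in the Calcb group, and Slc18a2, a vesicular monoamine transporter, stood at 173 and 0 CPM. Bnc2, a zinc finger factor, stood at 95 and 15.7 CPM and then at 111 and 21.1 CPM. Over all members Bnc2 stood at 86.1 and 98.1 CPM at these stages, so it was low in the Calcb group and not particular to the Tac1 group.

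Receptors for growth factors and guidance cues were found on both sides. Of 21 in the list, Ntrk3, Ngfr, Robo2, Plxna4 and Alcam were higher in the Calcb group in both libraries, and Epha5 and Ptprz1 in the Tac1 group. Ntrk3, the receptor for neurotrophin-3, stood at 321 CPM in the Calcb group against 13.3 CPM in the Tac1 group at E17.5. At P7 it stood at 680 CPM, in 14 of 14 cells, against 0 CPM. Plxna4, a semaphorin receptor, stood at 161 and 11.4 CPM at E17.5 and at 536 and 5.16 CPM at P7. Nog, a secreted BMP antagonist, stood at 210 and 1.90 CPM and then at 279 and 0 CPM.

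Ano2, a calcium-activated chloride channel, stood at 69.0 and 1.27 CPM in the Calcb and Tac1 groups at E17.5 and at 173 and 0 CPM at P7. Tbx3, a T-box factor, stood at 328 and 29.1 CPM and then at 418 and 31.0 CPM. P2rx2, an ATP-gated channel, stood at 346 and 12.9 CPM at P7. Nmu lay almost wholly in this group, with 12 of 41 cells at E17.5 and 5 of 14 at P7, against 0 of 139 and 1 of 33 in the Tac1 group.

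Krt19, a keratin of simple epithelia, was also high in the Calcb group. It stood at 165 CPM at E17.5 and 1229 CPM at P7, in 13 of 14 cells, against 8.87 and 23.2 CPM in the Tac1 group and 786 CPM in the epithelial cells of the P7 library. Over all members its level was 10.5, 33.7 and 391 CPM, and at 3000 UMIs per cell 22.7% of members, 14.6% of high neurons and 6.80% of non-neuronal cells had a Krt19 UMI at P7. Of the other epithelial genes described, none passed the limit between the groups at P7. Fabp2 stood at 139 CPM in both groups at P7, Fabp1 at 63.3 CPM in the Calcb group and 49.0 CPM in the Tac1 group, and Krt8 at 38.0 and 18.1 CPM.

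The cholinergic genes did not divide the groups in the same way. Slc18a3 stood at 168 CPM in the Tac1 group and 183 CPM in the Calcb group at E17.5, and at 268 and 287 CPM at P7, with a log2 ratio of -0.10 [-0.55 to 0.37] there. Slc5a7 did not pass the limit at E17.5 (174 and 140 CPM) and higher in the Tac1 group at P7 (402 and 236 CPM, log2 ratio 0.77 [0.32 to 1.23]). Calb2 at P7 was lower in the Tac1 group, with 1022 against 2001 CPM. Sst lay outside the Tac1 group, with 663 CPM in the Calcb group, of which 1 cell held 63.1%, and 424 CPM in neither.

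Members in neither group were not empty of class genes. Slc17a6, a vesicular glutamate transporter, had a UMI in 25 of 247 of them at E17.5 and in 3 of 19 at P7, where 1 cell held 75% of its UMIs, against 0 of 139 and 0 of 33 in the Tac1 group and 1 of 41 and 0 of 14 in the Calcb group. Klhl1 stood at 62.2 and 81.1 CPM in neither and at most 9.41 CPM in both other groups. Sox11 stood at 564 CPM at E17.5 in neither against 311 and 213 CPM in the Tac1 and Calcb groups.

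Other transmitters were rare. Of 14 genes for glutamate, GABA, monoamine and histamine signalling, 3 could be compared in each step, with 2 higher in the first, 1 higher in the second and none lower. Slc18a2 stood at 25.1, 40.2 and 89.2 CPM, and Slc17a6 at 1.02, 16.9 and 20.4 CPM. Gad2, Slc32a1 and Slc17a8 had no UMI in any member. Dbh and Th, enzymes of noradrenaline synthesis, were lower in members than in high neurons at P7, Dbh at 3.82 against 186 CPM. At E17.5 it was the reverse for Dbh, at 15.8 against 4.60 CPM, and Ddc, another enzyme of amine synthesis, was also higher in members, at 17.1 against 5.59 CPM.

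Genes of immature neurons passed the limit in both directions before birth, and part of them were lower at P7. Of 26 genes, 23 could be compared in the first step, with 2 higher and 2 lower (median -0.07), and 24 in the second, with 1 higher and 6 lower (median -0.38). Over all genes, 5.33% were higher and 5.8% lower in the first step, and 23.1% higher and 7.99% lower in the second. With the median of all genes set to no change, 12 of the list were lower in the second step. Sox11 stood at 609, 424 and 121 CPM, with a log2 ratio of -1.81 [-2.12 to -1.51] in the second step. It went the same way in high neurons, at 686, 492 and 88.2 CPM, and in non-neuronal cells, at 203, 163 and 37.4 CPM. Sox11 had a UMI in 315 of 324, 371 of 428 and 41 of 66 members, and no P7 member held more than 8.

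Cytoskeletal genes of growing neurons declined in part. Tmsb10, a thymosin that binds actin monomers, stood at 3373, 2038 and 1180 CPM and was lower in both steps. Tagln3, a neuronal transgelin, stood at 455, 475 and 310 CPM and Myt1, a zinc finger factor of neurogenesis, at 58.6, 41.3 and 22.9 CPM, both lower in the second step. Dcx, the microtubule protein of migrating neurons, stood at 161, 151 and 181 CPM and passed the limit in neither step. Stmn1 stood at 2603, 2147 and 1585 CPM and Sox4 at 685, 602 and 463 CPM, also without passing it.

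Btg2, an antiproliferative gene, stood at 107, 262 and 175 CPM in members and at 591, 1610 and 2076 CPM in non-neuronal cells. Its fall in the second step turned to a log2 ratio of 0.062 when cells marked by Scrublet were left out. Gadd45g stood at 62.0, 210 and 214 CPM in members and 257, 589 and 483 CPM in non-neuronal cells. Nhlh2, the gene that was higher at P7, had 24 UMIs in 2 cells. Between members and high neurons, none of 23 immature genes passed the limit at E15.5, and 1 was higher and 1 lower at E17.5. At P7, of 24 genes, 1 was higher and 2 were lower, with Insm1, a neuroendocrine factor, at 17.8 against 83.4 CPM.

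Pan-neuronal genes moved in both directions at P7. Of 22 genes, 1 was higher and 1 lower in the first step, and 5 were higher and 6 lower in the second. Over all genes 23.1% were higher and 7.99% lower in the second step, so the higher count was near that share. The median of the list was 0.17, against 0.22 for all genes. Snap25, a protein of vesicle fusion, stood at 153, 242 and 756 CPM and was higher in both steps. Syt1, the calcium sensor of release, stood at 544, 470 and 1121 CPM, and Ret, the receptor for GDNF, at 97.3, 89.7 and 176 CPM. Neurofilament genes fell. Nefm stood at 403, 241 and 38.2 CPM and was lower in both steps, and Nefl stood at 519, 360 and 125 CPM, with UMIs in 223 of 324, 205 of 428 and 7 of 66 members.

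**Figure D4:**
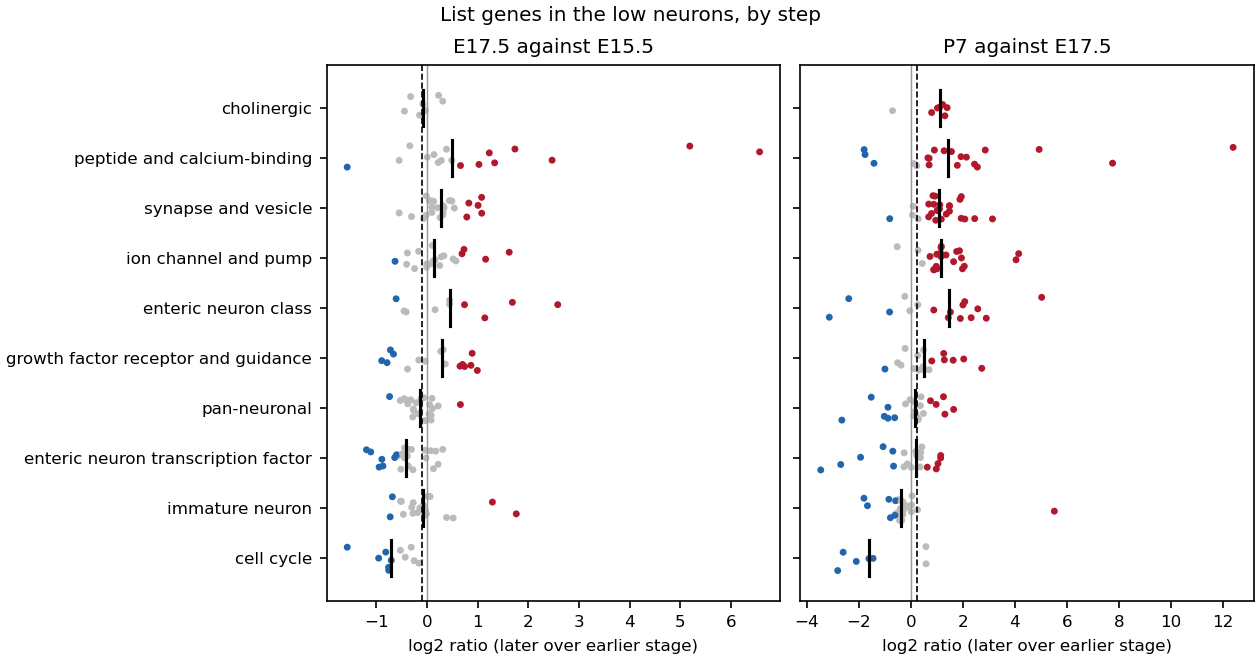
Log2 ratios (horizontal axis) of the genes of 10 lists (rows) that could be compared, from E15.5 to E17.5 and from E17.5 to P7, in neurons low in Nos1, Vip and Gal. Red points were higher and blue points lower by the limit of 1.5-fold, grey points neither, black bars are list medians and the dashed line is the median of all genes, at -0.10 and 0.22.

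Synapse and vesicle genes were mostly higher at P7. Of 26 genes, 24 could be compared in the first step, with 5 higher and none lower (median 0.28), and all 26 in the second, with 22 higher and 1 lower (median 1.06). With the median of all genes set to no change, 19 were higher and 1 lower. Syn2, a synapsin that tethers vesicles, stood at 76.6, 162 and 599 CPM, and Rab3c, a vesicle GTPase, at 97.1, 195 and 547 CPM, both higher in both steps. Vamp1, a vesicle SNARE, stood at 2.82, 6.21 and 54.8 CPM, and Nrxn3, a presynaptic adhesion molecule, at 21.8, 14.9 and 81.5 CPM.

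Against high neurons the synaptic list showed little direction. At E15.5, E17.5 and P7, 2, 5 and 3 genes were higher in members and 2 were lower in each library. Sv2c, a vesicle glycoprotein, was higher in members in all 3, at 42.0 against 23.7, 72.4 against 17.1 and 87.9 against 44.1 CPM. Syt4, another synaptotagmin, was lower in all 3, at 111 against 183, 106 against 174 and 169 against 402 CPM.

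Ion channels and pumps were mostly higher at P7. Of 33 genes, 20 could be compared in the first step, with 4 higher and 1 lower (median 0.14), and 23 in the second, with 20 higher and none lower (median 1.16). With the median of all genes set to no change, 19 were higher and 1 lower. Scn3a, a sodium channel, stood at 99.6, 119 and 218 CPM, and Scn11a, a persistent sodium channel of sensory and enteric neurons, at 0, 2.44 and 43.3 CPM. P2rx2 stood at 1.28, 7.32 and 121 CPM, with a log2 ratio of 4.05 [3.46 to 4.66] in the second step. Htr3a, a serotonin-gated channel, stood at 26.1, 80.3 and 134 CPM and was higher in both steps, as were the glutamate receptor Gria2, at 41.7, 93 and 210 CPM, and the potassium channel Kcnma1, at 40.7, 65.7 and 205 CPM.

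Kcnd2, an A-type potassium channel, set members and high neurons apart. It stood at 10.8, 16.0 and 31.9 CPM in members and 60.3, 95.4 and 155 CPM in high neurons. Kcnip4, a partner of such channels, was higher in members in all 3 libraries, at 41.2 against 20.2, 45.9 against 10.9 and 31.9 against 13.8 CPM. Htr3a was lower in members at E15.5 and E17.5 and missed the limit at P7.

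Transcription factors set members and high neurons apart in each library. Of 32 genes, 25, 24 and 22 could be compared at E15.5, E17.5 and P7, with 12 higher in members in each library and 4, 4 and 3 lower (medians 0.57, 0.55 and 0.84). Bnc2 (chromosome 4 from 84275095 to 84675275, minus strand) stood at 113, 86.1 and 98.1 CPM in members and 31.3, 9.54 and 4.82 CPM in high neurons, for log2 ratios of 1.85 [1.53 to 2.18], 3.17 [2.63 to 3.77] and 4.35 [3.23 to 5.71]. Casz1, a zinc finger factor, stood at 150, 175 and 226 CPM in members and 53.4, 28.9 and 26.9 CPM in high neurons. Satb1, a chromatin organiser, stood at 50.2, 49.5 and 110 CPM against 18.0, 11.8 and 20.7 CPM. In members none of the 3 passed the limit between E15.5 and E17.5. At 3000 UMIs per cell, 29.0%, 24.6% and 21.2% of members had a Bnc2 UMI, against 4.76%, 3.08% and 0 of 96 high neurons, which allows up to 3.13% at P7. The share in non-neuronal cells lay between 5.10% and 6.80%. The share in high neurons was below it at P7, while the intervals overlapped at E15.5 and E17.5. In CPM, non-neuronal cells held 23.4, 20.6 and 24.5 of Bnc2, so high neurons were above them at E15.5 and below them at E17.5 and P7.

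The opposite pattern was shown by Etv1 and Ebf1. Etv1 (chromosome 12 from 38779380 to 38870484, plus strand), an ETS factor, stood at 115, 92.8 and 24.2 CPM in members, in 85, 92 and 3 cells, and at 847, 900 and 1017 CPM in high neurons. Ebf1 stood at 12.3 and 7.55 CPM and had no UMI at P7, against 196, 209 and 72.3 CPM in high neurons, which made it at least 18.9-fold lower at P7 against a floor of 3 UMIs over the group. Tbx3 stood at 204, 150 and 176 CPM against 467, 370 and 478 CPM. Within the members, Bnc2 and Etv1 seldom met. At 3000 UMIs per cell, Etv1 had a UMI in 4.30% of Bnc2-positive members against 20.6% of the others at E15.5, and in 2.88% against 17.0% at E17.5.

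Before birth most members with a Cartpt UMI also had one of Etv1. Etv1 had a UMI in 23 of 35 Cartpt-positive members at E15.5 (65.7%) against 9.79% of the others, and in 23 of 34 at E17.5 (67.6%) against 8.76%. Those 23 cells were fewer than the 51 and 57 Etv1-positive members of the same libraries, so most of these had no Cartpt UMI. High neurons hold both genes at high levels. At P7 this did not recur, with 1 of 12 Cartpt-positive members (8.33%) against 3.70% of the others.

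Other factors shifted in both directions. Hoxa5 stood at 924, 1145 and 1044 CPM in members and 508, 629 and 591 CPM in high neurons, and Rbfox1, a splicing regulator of neurons, at 54.3, 57.0 and 126 CPM against 16.7, 16.8 and 51.0 CPM. Over the stages, none of 24 factors was higher in the first step and 7 were lower (median -0.42), while 5 were higher and 6 lower of 23 in the second (median 0.21). Over all genes the second step had 23.1% higher and 7.99% lower (median 0.22), so the higher count of factors was near that share. Meis1 stood at 202, 130 and 80.3 CPM, Pbx3 at 150, 99.0 and 47.1 CPM and Zfhx3 at 210, 97.2 and 61.2 CPM, each lower in both steps. These genes are also expressed outside neurons, with 150, 93.2 and 129 CPM of Meis1 in non-neuronal cells. Satb1, Ebf3, Rbfox1 and Rbfox3 were among those higher at P7.

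Genes that mark enteric neuron classes were in part higher at P7. Of 24, 10 could be compared in the first step, with 4 higher and 1 lower, and 16 in the second, with 10 higher and 3 lower (Nxph2, Klhl1 and Ntng1; median 1.48). Oprk1 stood at 0.768, 5.33 and 175 CPM, with UMIs in 3, 14 and 31 members, and at 0, 0.329 and 8.27 CPM in high neurons. Gda stood at 4.87, 29.1 and 122 CPM, and Gfra2, the receptor for neurturin, at 50.5, 36.8 and 106 CPM against 26.5, 7.56 and 14.5 CPM in high neurons. Nxph4, a secreted neurexin ligand, stood at 58.9, 80.1 and 77.7 CPM against 13.9, 16.8 and 17.9 CPM, and Ndufa4l2, a mitochondrial protein, at 120, 264 and 224 CPM against 31.6, 35.5 and 12.4 CPM. Ndufa4l2 was also present in non-neuronal cells, at 35.2, 99.6 and 203 CPM.

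Receptors of growth factors and guidance cues were divided between members and high neurons. At E15.5, E17.5 and P7, 5 were higher in members in each library and 7, 8 and 7 were lower, of 15, 16 and 18 compared. Gfra1, the co-receptor through which GDNF binds Ret, stood at 12.3, 7.77 and 7.65 CPM in members and at 92.2, 122 and 219 CPM in high neurons. Ret itself stood at 97.3, 89.7 and 176 CPM against 320, 281 and 302 CPM. Ednrb, the endothelin receptor of the enteric lineage, and Ngfr, the p75 neurotrophin receptor, were lower in members in all 3 libraries as well.

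Other receptors of this kind were higher in members. Plxna2, a semaphorin receptor, stood at 116, 113 and 86.6 CPM against 30.9, 22 and 15.8 CPM. Ntrk3 stood at 85.8, 103 and 252 CPM against 35.4, 53.9 and 105 CPM, and Robo2, a Slit receptor, at 92.5, 70.8 and 124 CPM against 40.1, 34.2 and 35.1 CPM. Epha5 changed sides, with 35.1 against 19.6 CPM at E15.5, 65.0 against 122 CPM at E17.5 and 266 against 559 CPM at P7.

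Over all genes compared in the 3 libraries, 95 of 7790 were higher in members by the limit in each and 93 were lower. The 10 with the largest ratio in their weakest library included Tac1, Bnc2, Plxna2, Nxph4, Ndufa4l2 and Klhl1 from the lists, and Gm2694, Pdpn, Pdzrn3 and Tafa5 from outside them. Gm2694, a long intergenic RNA on chromosome 8 from 87460469 to 87525554, stood at 51.2, 29.5 and 35.7 CPM in members, 11.7, 5.59 and 6.2 CPM in high neurons and at most 0.291 CPM in non-neuronal cells. Tafa5, which encodes a secreted protein of the brain, stood at 96.5, 126 and 152 CPM against 29.4, 22.4 and 28.2 CPM. On the lower side were Ebf1, Gfra1, Etv1, Cartpt and Kcnd2 from the lists, and Gng8, Ptgir, Tesc, Sorcs2 and Ass1. Ass1, argininosuccinate synthase, which recycles citrulline to arginine for nitric oxide synthesis, stood at 68.9, 121 and 181 CPM in members and 1194, 1340 and 972 CPM in high neurons.

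Genes were also ranked beyond the lists, among those whose level in members was at least that in non-neuronal and epithelial cells in the library where the gene was higher. A gene could pass through that library alone, so the ranking depends on the change itself and is a description. Among others, Tm4sf1 at E15.5, Sst and Camk2a at E17.5, and Lpar4, Dact1 and Fam122b at P7 were below the non-neuronal cells. The largest ratios from E15.5 to E17.5 mixed neuronal genes with single cells of another kind. Nmu, Tac1, Tm4sf1 and Rph3a were among the 10 highest. Rph3a, a Rab3 effector of synaptic vesicles, stood at 2.05, 22.2 and 102 CPM. Tm4sf1, a membrane protein, stood at 2.56, 33.3 and 310 CPM, against 4.26, 8.15 and 286 CPM in non-neuronal cells, so it was not particular to neurons at P7. The neutrophil genes S100a8, S100a9, Ngp and Stfa1 and the related Cstdc5 were also among them, with 99.0% to 100% of their E17.5 UMIs in 1 cell. The lowest included Chodl, a lectin-like membrane protein, at 193, 54.2 and 14.0 CPM and the homeobox gene Dlx1 at 56.1, 15.3 and 25.5 CPM. Hba-x, an embryonic globin, was also on this side, with 205 UMIs in 1 cell at E15.5.

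From E17.5 to P7 the 10 highest included Calb2, Sst, Oprk1, Nhlh2, Wif1, Prmt8, Dmkn and Camk2a. Wif1, a secreted WNT antagonist, stood at 0, 0.888 and 80.3 CPM in 0, 4 and 15 members. Prmt8, a neuronal arginine methyltransferase, stood at 0.256, 0.666 and 56.1 CPM in 1, 3 and 18 members, and Camk2a, a calcium-dependent kinase of synapses, at 1.28, 1.55 and 30.6 CPM. The 10 lowest held immune genes of few cells (S100a8, S100a9, Cstdc5, Cd74, Tyrobp and Srgn) and Lpar4, Rem2, Dact1 and Fam122b. Lpar4, a lysophosphatidic acid receptor, stood at 45.8, 62.6 and 5.10 CPM, Dact1, a regulator of WNT signalling, at 92.2, 50.2 and 5.10 CPM, and Rem2, a small GTPase of neurons, at 16.4, 39.1 and 3.82 CPM.

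The 20 cell cycle genes summed to 423, 267 and 127 CPM in members and to 2860, 1786 and 1401 CPM in non-neuronal cells, and Mki67 had a UMI in 26, 25 and 2 members. Against high neurons, 8 of 12 were higher in members at E15.5 and none lower, with sums of 423 and 229 CPM, and 1 of 4 was higher without the cells marked by Scrublet. Of 11 that could be compared in the first step, 6 were lower and none higher, and of 7 in the second, 5 were lower and none higher. With the cells marked by Scrublet left out, 3 could be compared in each step, none passed in the first, and 1 was higher and 1 lower in the second, where Top2a turned to 0.07 and Cenpf to 1.29 on the log2 scale. Without the marked cells the lower count of the first step was gone.

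Immediate-early and stress genes were in part higher at E17.5 than at E15.5. Of 15, 7 were higher in members in the first step, 8 neither and none lower, and of 16 in the second, 1 was higher and 7 lower. Fos stood at 406, 723 and 1088 CPM in members and at 1158, 2383 and 4688 CPM in non-neuronal cells. Atf3 stood at 9.48, 55.0 and 8.92 CPM in members and 49.0, 230 and 505 CPM in non-neuronal cells. The part of handling in these values was not tested.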

How the data were processed

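Each library's gene by cell matrix was used as deposited by the authors: whole-number UMI counts of filtered cells, made with Cell Ranger 7.2.0 against mm10/GRCm38, per the submitters' processing notes. No file gives cell types, so cells were chosen by the rule on UMI counts in the report. The 3 barcode files were identical and were not used, and no cell of 1 library had the same counts as a cell of another. UMIs were summed over the cells of a group in each library (Python 3.11.15, numpy 2.4.6, scipy 1.17.1), and the interval code was tested on simulated data. With 1 library per stage no test between stages is possible. A group without a UMI was set to a floor of 3 UMIs for ratios. Doublets were marked with Scrublet (scanpy 1.11.5, expected rate 6%) and kept, and left out as an alternative. Figures were drawn with matplotlib 3.10.9.

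Named genes were all genes of the lists, the 10 highest and 10 lowest called ratios of each step among genes at least as high in members as in non-neuronal and epithelial cells of the library where they were higher, and the 10 most extreme on each side between members and high neurons, by their weakest library. The members and lists were chosen with earlier results of these data known. The groups by Tac1 and Calcb, the pairs of genes counted in the same cells and the limit of 1% on RNA of other cells were chosen after values were seen. Alternatives changed the scaling, the CPM minimum, the depth of cells, the marked doublets, the limit on Nos1, Vip and Gal, and the depth of thinning. Results of some genes are not reported here.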

Additional observations from a re-analysis of the deposited data

Results flagged for a closer look

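In 3 of the genes reported here the members and the high neurons moved in opposite directions between the same pair of libraries, with both ratios past the limit of 1.5-fold. None of these differences was tested, since each stage is 1 library. Mki67, a gene of dividing cells, had a log2 ratio from E15.5 to E17.5 of -0.95 in members, from 33.5 to 17.3 CPM, and of 1.12 in high neurons, from 11.4 to 24.7 CPM. Prc1, which acts in cytokinesis, had -0.71 in members and 1.25 in high neurons, where it went from 7.89 to 18.7 CPM. Without the cells marked by Scrublet, 3 cell cycle genes could be compared between E15.5 and E17.5 in members and none passed the limit. Hba-a2, an α-globin of red cells, had 1.44 in members, from 366 to 995 CPM, and -1.04 in high neurons, from 1421 to 690.0 CPM. Its values in members rest on few cells: 87.4% and 98.3% of the UMIs of the 6 erythroid genes at E15.5 and E17.5 lay in the 10% of members that held most of them.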

How the results depend on the processing

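Each stage is 1 library, so no library could be left out, no paired analysis was possible and no test was run. The counts of genes past the limit depended mainly on which genes entered. With a minimum of 50 CPM, 112 were higher and 81 lower from E15.5 to E17.5, and 804 higher and 337 lower from E17.5 to P7. Between members and high neurons the same minimum gave 89 higher and 100 lower genes at E15.5, 95 higher and 118 lower at E17.5, and 208 higher and 206 lower at P7. With no CPM minimum, 834 were higher and 785 lower in the first step, 815 were higher in members at E15.5, and 848 were higher and 604 lower at E17.5. With the median ratio set to no change, 292 were lower in the first step, and 1367 were higher and 1218 lower in the second. Taking the mean of CPM per cell, with no interval, gave 1209 higher and 1051 lower at P7 against high neurons. Thinning to 5000 UMIs gave shares of members with a cholinergic UMI of 71.8%, 73.5% and 93.5%. Of the 116 alternative values of counts and shares, 93 stayed within 1.5 times of the count or within the interval of the share. None of those that left out marked doublets, members with any UMI of Nos1, Vip or Gal, cells under 5000 UMIs or cells with over 1% RNA of other types moved further. This holds for counts, not for which genes passed. Without the cells marked by Scrublet, 373 of the 462 higher and 375 of the 503 lower genes of the first step still passed. In the second step 1924 of 2071 higher and 588 of 717 lower genes did so.

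Single genes turned direction in 6 of 4097 recomputed ratios. Without the cells marked by Scrublet, the log2 ratio from E17.5 to P7 became 0.062 for Btg2, 1.29 for Cenpf and 0.07 for Top2a, and the ratio of members to high neurons became 0.54 for Fabp7 at E15.5 and -1.65 for Cenpf at E17.5. With members of 0 UMIs of Nos1, Vip and Gal alone, Calb1 at P7 against high neurons became -0.58. The cause was not tested.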
